A study of Rattus norvegicus with 14 samples.

Results

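Transcripts of the circadian clock were followed in glomeruli of male Dahl salt-sensitive rats (strain Dahl SS/JrHsdMcwiCrl), an inbred strain whose blood pressure rises on a salt-rich diet. Clock genes were chosen by Ensembl ID from a list of 8 IDs: Arntl, Clock, Per1, Per2, Per3, Dbp, Nr1d1 and Nr1d2. The IDs of 7 of these were among the 12934 in the count table, and all 7 passed the filter on low counts that left 11158 genes for testing. The ID listed for Per1 was not among them, and Per1 was not analysed here. The files pair no ID with a name, so the names are those of the list, and the levels of other clock genes and of glomerular, tubular and blood cell markers were not analysed here. The glomerular origin of the RNA was therefore not checked against marker genes.

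There were 14 libraries of glomeruli sieved from the kidney cortex, 7 from the high salt group (4% NaCl in the diet) and 7 from the normal salt group (0.4% NaCl). Both diets were given for 21 days from 8 weeks of age. Each library is called by its diet and the number in its title, from 9 to 24, odd on high salt and even on normal salt. What the number records, the hour at which each kidney was taken and whether each library is a separate rat are not given in the labels. What the tests measure is thus scatter among libraries, some of which may be technical.

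The clock is a feedback loop of transcription that runs in nearly every cell, kidney cells included. ARNTL (BMAL1) and CLOCK pair up and switch on genes through E-boxes, among them the Per genes, Dbp, Nr1d1 and Nr1d2. PER proteins then block the pair, and the REV-ERB receptors made from Nr1d1 and Nr1d2 hold Arntl down through ROR elements, so that in rodent tissues Arntl peaks when Dbp and Nr1d1 are near their trough. DBP is an output factor that acts through D-boxes, and its transcript has one of the widest daily swings known.

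Promoter windows carrying letters of these elements are shown here because the factors named above act through such elements. RefSeq windows of the GRCr8 assembly, each 300 bases long around an annotated start, were given for 7 of the 7 genes (9 windows, with Arntl listed as Bmal1). They were searched on both strands for CACGTG (the E-box), CACGTT (an E-box variant), TTATGTAA and TTACGTAA (D-boxes), TAGGTCA (core of the ROR element) and TGACGTCA (the cAMP element). Matches are in capitals in the 4 windows that held one, each printed 5′ to 3′ on the strand of the gene.
Arntl, chr1:176766078-176766377, plus strand: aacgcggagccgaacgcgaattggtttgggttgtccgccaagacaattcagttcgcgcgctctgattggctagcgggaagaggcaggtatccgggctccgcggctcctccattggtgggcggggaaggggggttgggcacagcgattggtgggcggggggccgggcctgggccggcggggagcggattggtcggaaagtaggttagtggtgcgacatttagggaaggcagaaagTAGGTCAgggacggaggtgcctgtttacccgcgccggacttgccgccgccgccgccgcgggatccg
Per2, chr9:99496944-99497243, minus strand: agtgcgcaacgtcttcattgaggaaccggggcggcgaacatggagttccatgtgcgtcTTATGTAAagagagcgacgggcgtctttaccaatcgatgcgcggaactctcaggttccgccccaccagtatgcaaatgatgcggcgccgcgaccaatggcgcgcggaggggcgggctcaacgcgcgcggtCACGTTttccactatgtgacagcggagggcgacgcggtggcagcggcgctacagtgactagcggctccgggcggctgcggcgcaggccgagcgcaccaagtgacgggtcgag
Nr1d1, first window, chr10:84231763-84232062, minus strand: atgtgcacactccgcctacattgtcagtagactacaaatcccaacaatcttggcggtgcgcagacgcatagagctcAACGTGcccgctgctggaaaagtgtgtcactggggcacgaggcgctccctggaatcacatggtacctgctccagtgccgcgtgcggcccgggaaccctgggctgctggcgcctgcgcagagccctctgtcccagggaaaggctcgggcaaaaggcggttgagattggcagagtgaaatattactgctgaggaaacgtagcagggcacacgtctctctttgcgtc
Nr1d1, second window, chr10:84229405-84229704, minus strand: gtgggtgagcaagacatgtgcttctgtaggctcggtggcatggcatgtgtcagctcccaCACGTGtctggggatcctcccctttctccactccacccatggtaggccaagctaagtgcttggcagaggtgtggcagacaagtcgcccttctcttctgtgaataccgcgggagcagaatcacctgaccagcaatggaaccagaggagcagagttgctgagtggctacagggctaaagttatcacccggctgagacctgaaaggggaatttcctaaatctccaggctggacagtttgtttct
The Arntl window held TAGGTCA, beginning 16 bases before the start, as did 2.63% of all 33469 windows. The Per2 window held TTATGTAA, 192 bases before the start, a sequence present in 0.893% of windows, and CACGTT, 62 bases before it, present in 4.83%. Nr1d1 carried CACGTT on the opposite strand, 174 bases before its first start, and CACGTG, 191 bases before its second start, a sequence found in 6.42% of windows. A match is a description of letters and not a mapped binding site. None of the 6 sequences occurred in these windows of Dbp, Per3, Nr1d2 or Clock. Sequence outside the 300 bases was not searched.

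The libraries held 13797146 to 18151197 counts each, and the 10 most abundant genes of a library took from 31.0% of its counts (high salt replicate 21) to 65.0% (high salt replicate 15). Levels are given as CPM, counts relative to the library total after TMM scaling, from 3′ tag libraries in which a transcript is read near its 3′ end. In tissue samples of this kind fewer cells of a type and less RNA per cell cannot be told apart. Within the diets, none of the 42 pairings of libraries was alike to within counting noise (chi-square per degree of freedom from 17.2 to 359).

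Dbp (ENSRNOG00000021027), the output factor, had the widest swing of the clock genes. It was counted 232 to 6833 times per library. On high salt the lowest library stood at 35.0 CPM (replicate 11), the median at 88.0 CPM and the highest at 344 CPM (replicate 21). On normal salt the values were 13.4 CPM (replicate 22), 160 CPM and 339 CPM (replicate 10). The diets overlapped over nearly the whole range. The 4 highest libraries, numbers 21, 10, 24 and 14, were 1 high salt and 3 normal salt libraries between 290 and 344 CPM. The highest library exceeded the lowest 25.7-fold, and only 33 of the 11158 genes tested spanned a wider range on the log2 CPM scale.

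Arntl (ENSRNOG00000014448), which encodes the partner of CLOCK and activator of the loop, swung the other way. Its lowest, median and highest levels were 9.05, 14.2 and 16.9 CPM on high salt and 5.16, 6.99 and 28.8 CPM on normal salt. The 2 highest libraries were normal salt replicates 16 (28.8 CPM) and 22 (23.9 CPM), which were the 2 lowest for Dbp (27.3 and 13.4 CPM). The lowest Arntl levels, 5.16, 5.72 and 6.52 CPM in normal salt replicates 24, 14 and 10, fell in 3 of the 4 libraries with the most Dbp. The range of Arntl was 5.57-fold, from 87 to 452 counts. Clock (ENSRNOG00000002175), the other activator, had a range of 2.75-fold, and its libraries lay between 22.1 and 39.4 CPM on high salt and between 16.2 and 44.5 CPM on normal salt.

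Per2 (ENSRNOG00000020254) and Per3 (ENSRNOG00000018413), which encode repressors of the pair, had their highest level in normal salt replicate 10 and their lowest in normal salt replicate 22. Per2 had a lowest, median and highest level of 12.8, 21.3 and 31.4 CPM on high salt and of 8.71, 30.9 and 49.5 CPM on normal salt. Per3 had 5.75, 9.29 and 15.3 CPM on high salt and 3.404, 18.3 and 45.8 CPM on normal salt. The range over all libraries was 5.68-fold for Per2 and 13.4-fold for Per3. For both genes the high salt values lay inside the range of the normal salt values.

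Nr1d1 (ENSRNOG00000009329) and Nr1d2 (ENSRNOG00000046912) encode the REV-ERB receptors. Nr1d1 lay at 38.5, 102 and 131 CPM (lowest, median and highest) on high salt and at 36.6, 83.6 and 102 CPM on normal salt. Nr1d2 lay at 70.3, 94.5 and 182 CPM on high salt and at 66.8, 112 and 169 CPM on normal salt. High salt replicate 21 was the highest library for Nr1d1, Nr1d2 and Dbp alike. The ranges, 3.58-fold for Nr1d1 and 2.72-fold for Nr1d2, were narrower than those of Dbp and Per3.

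**Figure D1:**
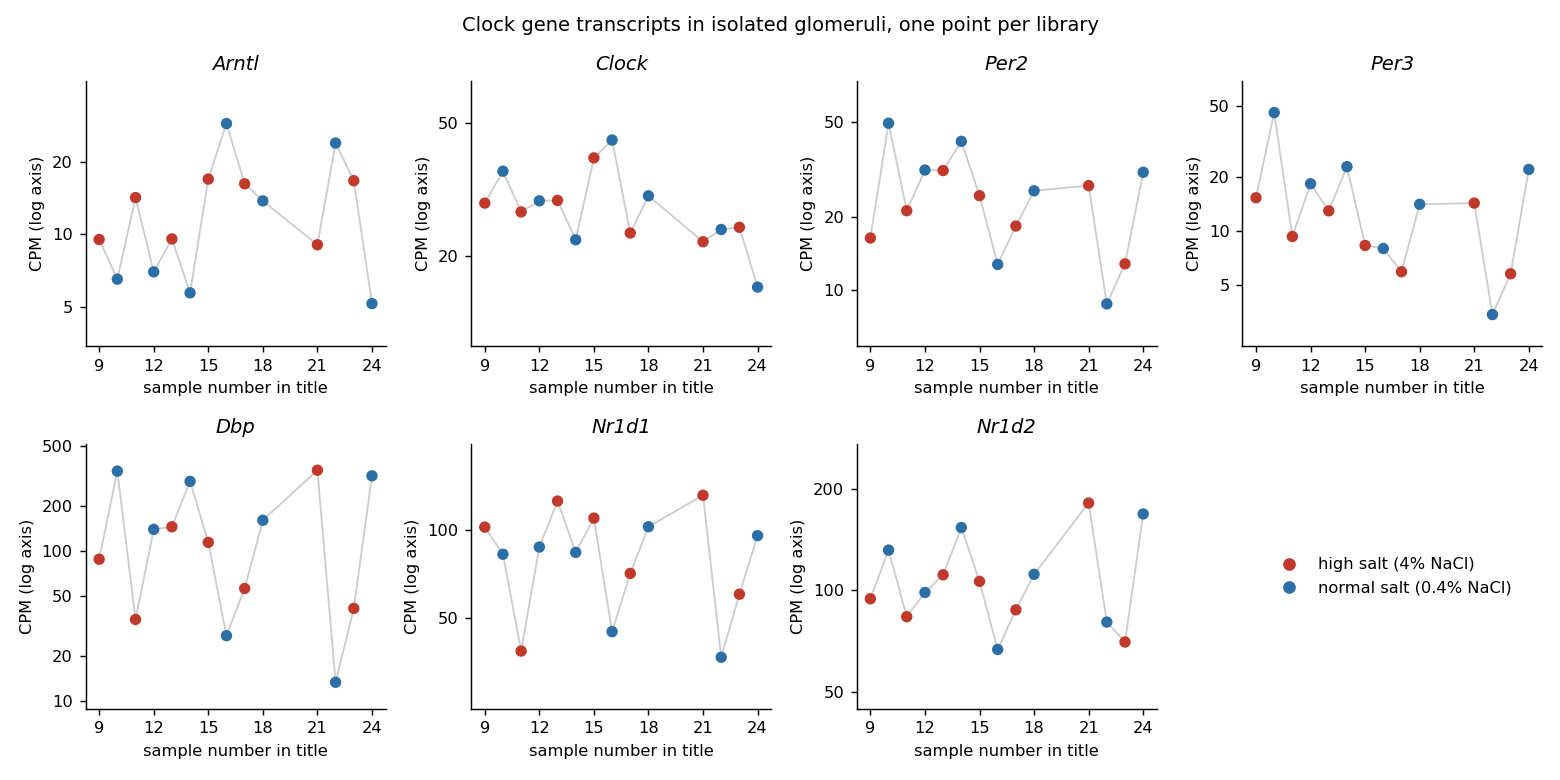
CPM (log axis) of the 7 clock genes against the number in the library title, with 1 point per library, high salt in red and normal salt in blue, and grey lines joining successive numbers. Dbp runs from 13.4 to 344 CPM with no steady rise or fall along the number, and the red and blue points overlap in each panel.

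The spread of most clock genes between libraries was wide beside that of other genes. The biological coefficient of variation that edgeR estimates within the diets was 0.77 for Dbp, which ranked 47 of 11158 genes, and the median gene had 0.24. It was 0.52 for Per3, 0.48 for Arntl, 0.41 for Per2, 0.36 for Nr1d1 and 0.30 for Nr1d2. Clock, at 0.26, was close to the median gene. Among the 500 genes nearest in mean level, 0 varied more than Dbp, 4 more than Per3, 8 more than Arntl and 97 more than Clock.

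The opposed levels of Arntl and Dbp held over the whole set of libraries. Log2 CPM of Arntl and Dbp correlated at Pearson r = -0.86 (n = 14, two-sided permutation p = 0.00018, Benjamini-Hochberg adjusted p = 0.00063 over the 21 pairs of genes) and the rank correlation (Spearman rho) was -0.82 (permutation p = 0.00058, adjusted p = 0.00203). Without normal salt replicates 16 and 24, the 2 libraries farthest from the median of Arntl, r was -0.82 (permutation p = 0.0012). It was -0.91 within normal salt (n = 7, exact permutation p = 0.0107) and -0.68 within high salt (n = 7, exact permutation p = 0.0927), where it missed the threshold. It was -0.86 in numbers 9 to 16 (n = 8, exact permutation p = 0.00655) and -0.89 in numbers 17 to 24 (n = 6, exact permutation p = 0.0167). The ratio of Dbp to Arntl ran from 0.563 in normal salt replicate 22 to 59.6 in normal salt replicate 24, 2 libraries of the same diet.

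Arntl against Nr1d1 was the looser relation. Pearson r was -0.60 (n = 14, permutation p = 0.0267, adjusted p = 0.04) while Spearman rho was -0.42 (permutation p = 0.141, adjusted p = 0.193), and without normal salt replicates 16 and 24 r was -0.51 (permutation p = 0.0931). Without normal salt replicate 16 alone r was -0.51 (permutation p = 0.0796) and without normal salt replicate 22 alone it was -0.50 (permutation p = 0.0864), so the relation rests in part on these libraries. Without replicate 24 alone it was -0.60. Within the diets r was -0.59 on high salt (n = 7, exact permutation p = 0.152) and -0.80 on normal salt (n = 7, exact permutation p = 0.0437). Within numbers 9 to 16 it was -0.49 (n = 8, exact permutation p = 0.213) and within 17 to 24 it was -0.74 (n = 6, exact permutation p = 0.0889).

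Nr1d1 rose with Dbp, but was not always highest where Dbp was highest. Pearson r was 0.82 (n = 14, permutation p = 0.00031, adjusted p = 0.000919) and rho was 0.71 (permutation p = 0.00627, adjusted p = 0.011), and r was 0.67 without normal salt replicates 16 and 22 (permutation p = 0.0123). It was 0.90 on high salt (n = 7, exact permutation p = 0.00774) and 0.93 on normal salt (n = 7, exact permutation p = 0.0244). In numbers 9 to 16 it was 0.69 (n = 8, exact permutation p = 0.0551) and in 17 to 24 it was 0.96 (n = 6, exact permutation p = 0.00417). Normal salt replicates 10, 14 and 24 were among the 4 highest for Dbp, but with 82.4, 83.6 and 95.4 CPM of Nr1d1 they ranked 9, 8 and 6 of the 14 for that gene. High salt replicates 13 and 15, with less Dbp (145 and 114 CPM), had more Nr1d1 (125 and 109.5 CPM). The ratio of Nr1d1 to Dbp ran from 0.244 in normal salt replicate 10 to 2.72 in normal salt replicate 22.

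**Figure D2:**
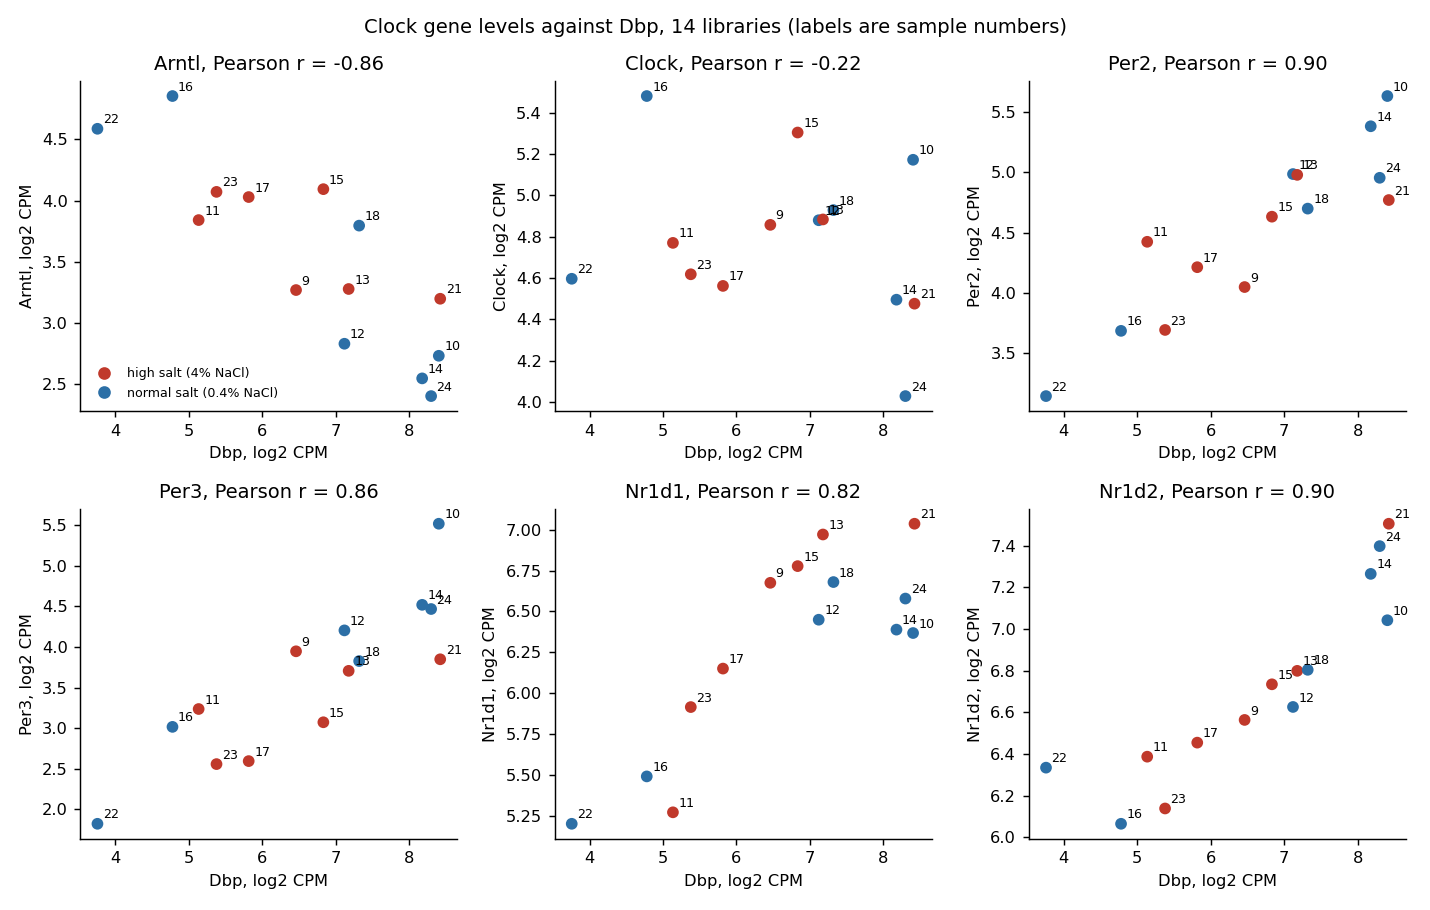
Log2 CPM of each other clock gene (vertical axes) against log2 CPM of Dbp (horizontal axes) in 14 libraries, labelled with their numbers, high salt in red and normal salt in blue. Arntl falls as Dbp rises (r = -0.86), Per2, Per3, Nr1d1 and Nr1d2 rise with it (r from 0.82 to 0.90), and Clock shows no clear slope (r = -0.22).

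Nr1d2 and the Per genes followed Dbp closely. Nr1d2 had r = 0.90 with Dbp (permutation p = 1e-05, the smallest the permutations can give, adjusted p = 0.000105) and rho = 0.96. Per2 had r = 0.90 with Dbp (permutation p = 1e-05, again the smallest possible, adjusted p = 0.000105) and rho = 0.84 (permutation p = 0.00028). Per3 had r = 0.86 (permutation p = 0.00011, adjusted p = 0.000462) and rho = 0.81 (permutation p = 0.0009). Within normal salt these 3 values of r were 0.89, 0.97 and 0.94. Within high salt they were 0.95 for Nr1d2 (n = 7, exact permutation p = 0.000992), 0.68 for Per2 (exact permutation p = 0.0887) and 0.67 for Per3 (exact permutation p = 0.103).

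The pair of Per genes matched each other at r = 0.88 (permutation p = 3e-05, adjusted p = 0.00021). Nr1d1 was looser against both. With Per3 it had r = 0.55 (permutation p = 0.042, adjusted p = 0.0587) and rho = 0.42, which did not pass. With Per2 it had r = 0.63 (permutation p = 0.0157, adjusted p = 0.0254) and rho = 0.49 (permutation p = 0.081). Without normal salt replicates 16 and 22 the r of Per2 with Nr1d1 was 0.32 (permutation p = 0.311). Against Arntl, Per3 stood at r = -0.86 (permutation p = 8e-05, adjusted p = 0.00042), Per2 at -0.83 (permutation p = 0.00035, adjusted p = 0.000919) and Nr1d2 at -0.80 (permutation p = 0.00086, adjusted p = 0.00201). Clock passed the test with none of the other 6 genes. Its strongest relations were r = -0.46 with Nr1d2 (permutation p = 0.0983, adjusted p = 0.129) and r = 0.45 with Arntl (permutation p = 0.104, adjusted p = 0.129). Without normal salt replicates 16 and 24, the r of Clock with Arntl was -0.06. In numbers 9 to 16 alone it was 0.705 (n = 8, exact permutation p = 0.052). In numbers 17 to 24 alone it was 0.727 (n = 6, exact permutation p = 0.103).

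**Figure D3:**
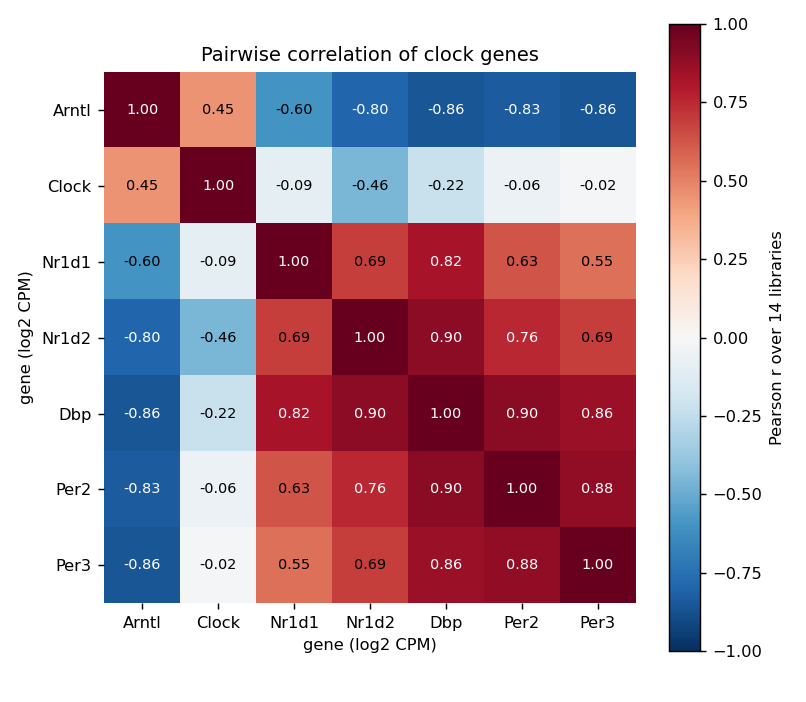
Pearson r of log2 CPM over 14 libraries for each pair of the 7 clock genes, from blue (-1) to red (1). Arntl is negative against Dbp, the Per genes and the Nr1d genes (-0.86 to -0.60). Those 5 are positive among themselves, from 0.55 (Per3 with Nr1d1, which did not pass the test) to 0.90. Clock lies between -0.46 (Nr1d2) and 0.45 (Arntl).

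Among all genes, the clock genes stood near both ends of the ordering by likeness to Dbp. Of the other 11157 genes tested, the median r with Dbp was -0.01, and the 5th and 95th percentiles were -0.53 and 0.48. Per2 was 3rd, Nr1d2 4th, Per3 6th and Nr1d1 9th from the top, and Arntl was 2nd from the bottom. Clock ranked 8026 from the top. These ranks describe correlations over 14 libraries that differ in depth and scaling, and the depth and scaling of a library apply to all its genes. The gene most like Dbp was ENSRNOG00000019383 (r = 0.94, 29.6 CPM on average), followed outside the clock list, among genes of at least 5 CPM, by ENSRNOG00000007478 (r = 0.88, 20.6 CPM). The most opposed were ENSRNOG00000005413 (r = -0.87, 76.0 CPM) and ENSRNOG00000055078 (r = -0.85, 9.91 CPM). For Arntl, again among genes of at least 5 CPM, the 2 most alike genes outside the list reached r = 0.84 and the 2 most opposed reached -0.86 and -0.84.

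**Figure D4:**
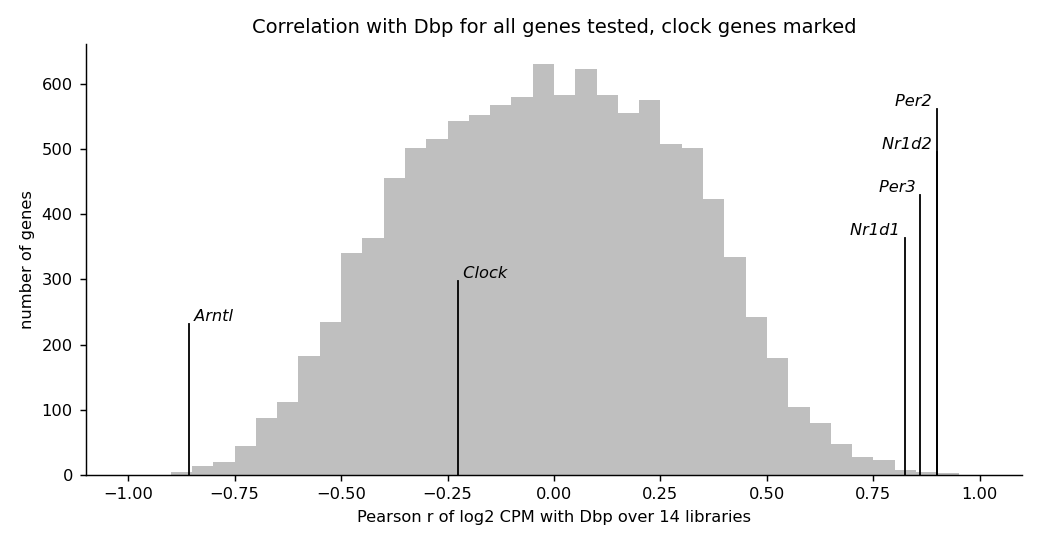
Histogram of the Pearson r of log2 CPM with Dbp over 14 libraries for the other 11157 genes tested (number of genes per bin of r), with the clock genes marked by vertical lines of arbitrary height. Per2, Nr1d2, Per3 and Nr1d1 lie at the right edge (0.82 to 0.90), Arntl at the left edge (-0.86) and Clock inside the bulk.

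The same relation was then tested on the counts of all genes, with the log2 CPM of Dbp as a term beside diet, a test chosen after the data were seen. Of 11157 genes, edgeR's quasi-likelihood test called 10 at an adjusted p below 0.05 (0.0896% of those tested; 818 or 7.33% had an unadjusted p below 0.05), 7 that rose with Dbp (0.0627%) and 3 that fell (0.0269%). Of these 10 genes 5 were clock genes: Per2, Per3, Nr1d1 and Nr1d2 rose and Arntl fell. Per doubling of Dbp, the log2 change was 0.54 ± 0.09 (SE) for Per3 (edgeR, adjusted p = 0.0219), 0.42 ± 0.06 for Per2 (adjusted p = 0.0134), 0.35 ± 0.06 for Nr1d1 (adjusted p = 0.0219), 0.27 ± 0.04 for Nr1d2 (adjusted p = 0.0134) and -0.44 ± 0.07 for Arntl (adjusted p = 0.0219). Clock changed by -0.06 ± 0.07 per doubling (95% interval -0.20 to 0.09, adjusted p = 0.845).

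The other 5 called genes, which have no paired name, included ENSRNOG00000019383 and ENSRNOG00000007478 (higher) and ENSRNOG00000005413 (lower). A like test on the level of Arntl called 0 of 11157 genes with edgeR (0%; 1395, or 12.5%, at an unadjusted p below 0.05), although Per3 and Dbp had the smallest and the next smallest p (unadjusted p = 3.36e-05 and 6.29e-05, adjusted p = 0.119 for both). Per doubling of Arntl, Dbp changed by -1.63 ± 0.30 and Per3 by -1.03 ± 0.18 (log2, SE).

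The calls for Dbp depended on single libraries more than the slopes did. Without normal salt replicate 16 edgeR called 0 of the 6 clock genes and 2 genes in all, and without normal salt replicate 22 it called 1 and 3. Without high salt replicate 13 or normal salt replicate 10 it called 3 and 6, and without normal salt replicate 14 or high salt replicate 21 it called 3 and 7. Without high salt replicate 23 it called 4 and 11, and without normal salt replicate 24 it called 4 and 10. Of the 14 omissions, Arntl was called in 7, Per3 in 8, Nr1d1 in 11, Per2 in 12 and Nr1d2 in 13. Over the 14 omissions the slope of Arntl stayed between -0.47 and -0.37, that of Per2 between 0.37 and 0.47, that of Per3 between 0.46 and 0.59, that of Nr1d1 between 0.31 and 0.37 and that of Nr1d2 between 0.24 and 0.35. Without high salt replicate 15, the library dominated by abundant genes, 5 of the 6 were called.

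No clock gene passed the test against sequencing depth after adjustment. Total counts correlated with Arntl at r = 0.54 (n = 14, permutation p = 0.0455, adjusted p = 0.102 over the 7 genes; rho = 0.50, permutation p = 0.0689, adjusted p = 0.126) and with Dbp at r = -0.51 (permutation p = 0.0618, adjusted p = 0.102; rho = -0.46, permutation p = 0.1, adjusted p = 0.126). Without high salt replicates 11 and 23 these r were 0.52 and -0.38. The strongest relation with total counts was that of Per3, at r = -0.58 (permutation p = 0.0291, adjusted p = 0.102). Its rho was -0.60 (permutation p = 0.0265, adjusted p = 0.126). Per2, Nr1d1 and Nr1d2 had r of -0.49, -0.51 and -0.45, the same sign as Dbp and opposite to Arntl, and Clock had -0.05. With the total count as a further term, edgeR called 0 of the 6 clock genes and 3 genes in all for Dbp. The slopes were then -0.40 for Arntl (adjusted p = 0.322), 0.41 for Per2 (adjusted p = 0.126), 0.50 for Per3 (adjusted p = 0.271), 0.30 for Nr1d1 (adjusted p = 0.2) and 0.27 for Nr1d2 (adjusted p = 0.0825). The residuals of Arntl and Dbp after the total count correlated at r = -0.80 (permutation p = 0.00083).

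No clock gene passed the test for a trend with the number in the library title. With diet in the model, edgeR's quasi-likelihood test of a linear trend called 0 of the 7 clock genes, while 1418 of all 11158 genes (12.7%) were called, 6.97% as higher and 5.74% as lower. From number 9 to number 24 the fitted log2 change of Dbp was 0.24 ± 1.01 (SE; 95% interval -1.91 to 2.39, adjusted p = 0.89) and that of Arntl was 0.73 ± 0.62 (-0.58 to 2.04, adjusted p = 0.434). The Arntl change was 1.22 without normal salt replicate 24 (adjusted p = 0.151), 0.36 without replicate 22 and 0.47 without replicate 10. For Nr1d1 it was -0.09 ± 0.43 (-1.01 to 0.82) and for Nr1d2 0.24 ± 0.34 (-0.49 to 0.96). The intervals are wide, and for each clock gene but Nr1d2 they reach past a 2-fold change.

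Per3, Per2 and Clock had negative slopes, none of which passed. Per3 changed by -1.09 ± 0.54 on the log2 scale from number 9 to 24 (adjusted p = 0.177), Per2 by -0.76 ± 0.46 (adjusted p = 0.27) and Clock by -0.62 ± 0.28 (unadjusted p = 0.037, a level under 0.05 that 32% of all genes reached, adjusted p = 0.13). Without normal salt replicate 24 the change was -1.81 for Per3 (unadjusted p = 0.00992, adjusted p = 0.0635), -1.19 for Per2 and -0.39 for Clock. Without normal salt replicate 10 it was -0.58 for Per3 and -0.49 for Per2, and without normal salt replicate 22 that of Per2 was -0.46. With the level of Dbp in the model, an alternative added after seeing the data, Per3 passed at -1.06 ± 0.24 (edgeR, adjusted p = 0.0171). Per2 then stood at -0.66 ± 0.21 (adjusted p = 0.0579).

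The clock genes moved up and down between neighbouring numbers. Dbp stood at 344, 13.4, 41.5 and 315 CPM in numbers 21, 22, 23 and 24, in that order, and Arntl at 9.05, 23.9, 16.7 and 5.16 CPM in the same libraries. Earlier, Dbp passed from 290 CPM in number 14 to 114 in 15 and 27.3 in 16. A linear term in the number cannot describe such reversals. The labels give no hour of collection, so whether the reversals follow the time of day was not tested.

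Nor did any clock gene pass the test for a difference between the diets. edgeR called 0 of the 7, as it called 0 of all 11158 genes (0%; 202 at an unadjusted p below 0.05, 1.81% of those tested). The nearest was Per3, at 10.2 ± 3.93 CPM under high salt against 19.2 ± 13.7 CPM under normal salt (mean ± SD, 7 libraries a diet). Its log2 fold change was -0.90 ± 0.41 (SE, edgeR, 95% interval -1.77 to -0.03, unadjusted p = 0.0431, adjusted p = 0.9997), and without normal salt replicate 10, the highest library for Per3, it was -0.52 (unadjusted p = 0.172). Without normal salt replicate 22, the lowest library for Per3, it was -1.08 (edgeR, unadjusted p = 0.0055, adjusted p = 0.806). With the level of Dbp in the model, a fit added after seeing the data, it was -0.42 ± 0.24 (edgeR, unadjusted p = 0.102, adjusted p = 0.9996). Of the clock genes, Nr1d1 had the smallest p in that fit, at 0.38 ± 0.15 (edgeR, unadjusted p = 0.0231, adjusted p = 0.9996). In the authors' deposited table the log2 fold change of Per3 was also -0.90.

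Dbp averaged 118 ± 107 CPM under high salt against 183 ± 135 CPM under normal salt (mean ± SD), and its log2 fold change was -0.64 ± 0.62 (SE; 95% interval -1.96 to 0.68, adjusted p = 0.9997). Without high salt replicate 21 it was -1.18 (unadjusted p = 0.0714) and without normal salt replicate 10 it was -0.42. For Per2 the log2 fold change was -0.40 ± 0.31 (-1.06 to 0.26; -0.21 without normal salt replicate 10), for Nr1d2 -0.14 ± 0.22 (-0.61 to 0.33) and for Nr1d1 0.26 ± 0.27 (-0.31 to 0.83). Arntl averaged 13.2 ± 3.65 CPM under high salt against 13.0 ± 9.67 CPM under normal salt, with a log2 fold change of 0.02 ± 0.37 (-0.76 to 0.80), and Clock differed by -0.06 ± 0.19 (-0.46 to 0.34). In this edgeR fit of all 14 libraries, the 95% intervals of Arntl, Clock, Nr1d1 and Nr1d2 lay within a 2-fold difference between the diets. Those of Dbp, Per2 and Per3 reached past it. For Arntl this bound depends on the fit. Its log2 fold change was 0.47 ± 0.33 (SE) with limma voom and 0.34 ± 0.34 without normal salt replicate 16, its highest library. Without normal salt replicate 24, its lowest library, it was -0.12 ± 0.36. None of these fits called Arntl.

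**Figure D5:**
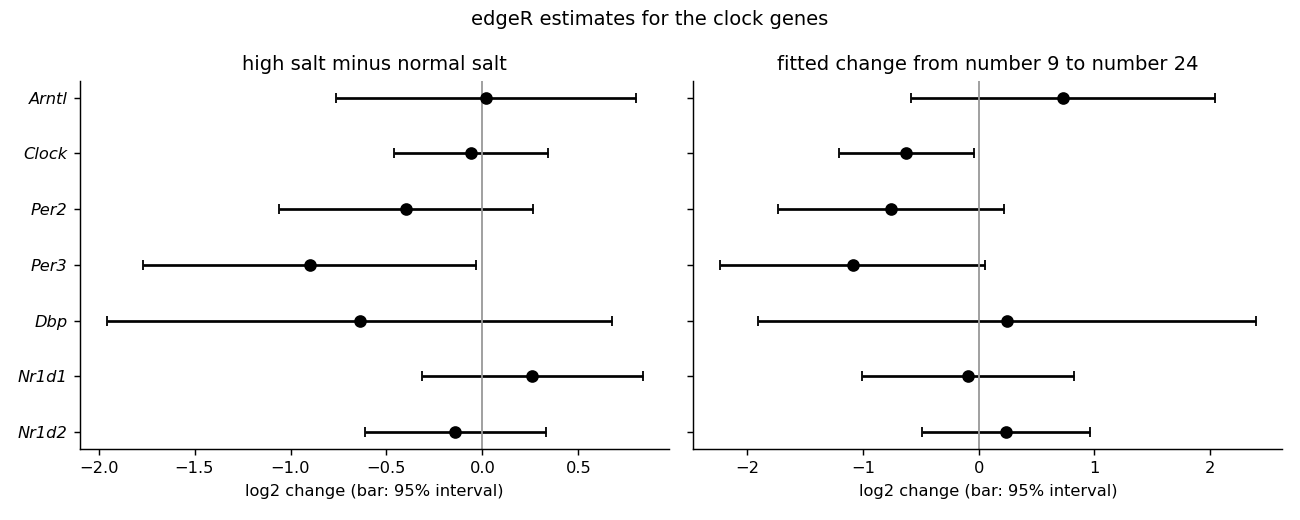
edgeR estimates for the 7 clock genes on the log2 scale, with 95% intervals, for high salt minus normal salt (left) and for the fitted change from number 9 to number 24 (right). All 14 estimates have adjusted p above 0.05, and the intervals of Dbp are the widest in both panels (-1.96 to 0.68 and -1.91 to 2.39).

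The slope along the number was also compared between the diets. The interaction term called 0 of the 7 clock genes and 0 of all 11158 (0%; 213, or 1.91%, at an unadjusted p below 0.05 with edgeR). For Dbp the slope on high salt exceeded that on normal salt by 1.92 ± 1.98 on the log2 scale over the range of the numbers (95% interval -2.32 to 6.16, adjusted p = 0.998).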

How the data were processed

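Glomerular RNA was isolated in TRIzol and went into Lexogen QuantSeq 3′ FWD libraries for an Illumina NextSeq, per the labels' protocols. The authors deposited raw counts per rat Ensembl ID, and a normalized signal, which is those counts divided by 1 factor per library, with diet means, a signed fold and its log2. Per the submitters' processing notes, DESeq2 1.18.1 and R 3.4.3 were used. The notes also name GRCm38, a mouse build. For the aligner, counting program and annotation nothing is given in the sources used here, so the counts have no coordinates. RefSeq GRCr8 served only for promoter windows.

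Counts were tested with edgeR 4.0.16 in R 4.3.3 (TMM, filterByExpr, robust quasi-likelihood F-test, Benjamini-Hochberg adjustment over all genes, threshold 0.05). Log2 CPM used a prior count of 2. Correlations were tested with 100000 permutations (n above 8) or all orders, two-sided. The steps were tested on simulated data. Alternatives included DESeq2 1.42.0, limma 3.58.1, other factors and filters, covariates, and each library left out. All clock genes of the list were named. Other clock genes and cell markers, listed by symbol, could not be applied. Genes and lists were chosen with earlier results of these data known.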

Additional observations from a re-analysis of the deposited data

Results flagged for a closer look

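In 3 of 14 sets of 7 values (7 genes in each diet) 1 library stood far from the others of its diet, where chance gives about 1 in 20 independent sets. The sets are not independent, since 2 of the 3 are the same library in Dbp and Nr1d2, which correlated at r = 0.95 within high salt. On the log2 CPM scale, tried after seeing the data, none of these 3 passed the same limit: the gap to the next library was 0.38 of the range for Dbp, 0.52 for Nr1d2 and 0.51 for Clock. High salt replicate 21 was highest for Dbp at 344 CPM, with the next high salt library at 145 CPM, although 3 normal salt libraries lay between 290 and 339 CPM. The same library was highest for Nr1d2 at 182 CPM, with the next high salt library at 111 CPM and normal salt replicate 24 at 169 CPM. High salt replicate 15 was highest for Clock at 39.4 CPM, with the next high salt library at 29.4 CPM and normal salt replicate 16 at 44.5 CPM. Replicates 21 and 15 were also the libraries with the lowest and the highest share of counts in the 10 most abundant genes, 31.0% and 65.0%. Over the 14 libraries that share correlated with Clock at r = 0.47 (permutation p = 0.0858, adjusted p = 0.303). For Nr1d2 r was -0.42 (permutation p = 0.13, adjusted p = 0.303) and for Dbp it was -0.26 (permutation p = 0.377, adjusted p = 0.528). Without replicates 15 and 21 these r were 0.22, -0.36 and -0.20, in that order. Whether the share shaped these levels was not tested.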

How the results depend on the processing

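The diet called 0 genes and 0 clock genes in each of the 11 alternative fits and each of the 14 omissions of 1 library. Its log2 fold change changed sign for Arntl in numbers 17 to 24 alone (-0.028) and over the omissions (-0.12 to 0.34), and for Clock with limma voom (0.070) and over the omissions (-0.16 to 0.077), all far from the threshold. The highest Arntl estimate for the diet was 0.47 ± 0.33 (SE), with limma voom (adjusted p = 0.8995). Per3 with Dbp in the model was the only clock gene called for the number in these alternatives. The fitted change of Dbp along the number became -0.51 with limma voom and -0.10 with the 10 top genes' share of counts in the model. This change of Dbp was -0.57 in normal salt alone, 1.31 ± 1.08 (SE) in high salt alone and -0.71 to 0.83 over the omissions. That of Nr1d1 became 0.021 beside Dbp, 0.0056 in high salt alone and -0.35 to 0.14 over the omissions, and that of Nr1d2 ran from -0.11 to 0.47. Genes called for the number were 2167 with DESeq2, 0 in either diet alone and 451 to 2118 over the omissions. Of these omissions, normal salt replicates 22, 10 and 12 and high salt replicates 9 and 21 gave 451, 513, 762, 547 and 926. Genes called for Dbp were 24 with limma voom, 53 with DESeq2, 3 with the total count as a term and 2 to 11 over the omissions. The 5 clock genes were called with limma voom and DESeq2 too. The slope of Clock on Dbp ran from -0.13 to 0.014. The Arntl test called 3 genes with the number in the model, Per3 among them (adjusted p = 0.0394), and 0 to 1 over the omissions. The r of Arntl with Dbp was -0.68 in high salt alone and -0.89 to -0.83 over the omissions. That of Arntl with Nr1d1 was -0.59 in high salt alone, -0.49 in numbers 9 to 16, -0.74 in 17 to 24, -0.44 after the total count and -0.68 to -0.50 over the omissions. That of Dbp with Nr1d1 was 0.69 in numbers 9 to 16. The diets share no number, so the titles name no pairs. Blocks of 2 consecutive numbers, each with 1 high salt and 1 normal salt library, paired the diets by number. That fit also called 0 genes for the diet. The causes of these shifts were not tested. Tests of 1 library omitted have fewer libraries. Low counts limit no clock gene here, the lowest being 59 counts.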
